A study of Mus musculus with 6 samples.

Results

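Mitochondrial carriers of the Slc25 family were described in RNA from mouse pancreatic islets. The family was taken as every protein-coding gene of the deposited table whose symbol begins with Slc25a and a digit, which gave 47 genes of the 54532 listed (22046 of them protein coding). Expression was measured in 3 Bcas2 conditional knockout (cKO) libraries, numbered 3, 4 and 5, and in 3 control libraries, labelled wild type and numbered 1, 3 and 4. BCAS2 is a spliceosome-associated protein, and the series title links it, through alternative splicing, to how insulin is made and released. The design text speaks of a knockdown where the samples are labelled as knockouts, and the sources used here do not give the Cre driver, which part of Bcas2 was deleted, the mice's age and sex or any pooling of animals. The labels do not say that libraries of a group came from separate animals, so p-values measure only how these libraries spread, and that spread may be technical.

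Members of the family are nuclear-encoded proteins, most of which sit in the inner mitochondrial membrane and exchange nucleotides, phosphate, carboxylates, amino acids, cofactors or metal ions between the cytosol and the matrix. In pancreatic beta cells they feed the matrix with substrates and export ATP and citrate, and the aspartate-glutamate, oxoglutarate and citrate carriers belong to shuttles that link glucose oxidation to insulin release. A few relatives work on peroxisomes or on the outer mitochondrial membrane.

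Recovered reads on genes numbered between 16351800 and 16904326 in the Bcas2 cKO libraries and between 15170439 and 15594871 in the control libraries. Bcas2 itself had 8.77 ± 0.370 FPKM in Bcas2 cKO islets and 12.2 ± 2.51 FPKM in control islets (SD, n = 3 each), a log2 fold change of -0.42 with a limma adjusted p of 0.083, and its groups did not overlap. The samples are labelled as beta cells, and the insulin gene Ins2 was at 63980 to 77180 FPKM in Bcas2 cKO libraries and 100267 to 170433 FPKM in control libraries. Glucagon (Gcg) was also abundant, at 20624 to 26311 FPKM in Bcas2 cKO libraries and 17728 to 20437 FPKM in control libraries, so the samples held alpha cell RNA too. The 9 beta cell markers took 14.6% to 15.9% of reads in Bcas2 cKO libraries and 20.4% to 28.7% in control libraries. The 16 acinar markers took 1.69% to 4.85% in Bcas2 cKO libraries and 0.523% to 1.30% in control libraries, with none at 0 in any library. The 8 immediate early genes took 1.44% to 1.77% in Bcas2 cKO libraries and 0.204% to 0.537% in control libraries. Ductal markers (7 genes) took 0.0961% to 0.120% of reads in Bcas2 cKO libraries and 0.0462% to 0.0498% in control libraries, and macrophage markers (8 genes) took 0.0151% to 0.0200% in Bcas2 cKO libraries and 0.0101% to 0.0121% in control libraries. Markers of alpha, delta and PP cells (7 genes) took 4.23% to 4.64% in Bcas2 cKO libraries and 3.36% to 3.47% in control libraries, while those of endothelial and stellate cells were at or under 0.0426% in every library. The part of these shares in the carriers' values was not tested. In islet samples, fewer cells of a type and less RNA per cell cannot be told apart.

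Of the 47 carriers, Slc25a25 rose in Bcas2 cKO islets, Slc25a42 fell, and the other carriers tested did not pass. FPKM are reads per kilobase of gene length scaled to a depth set for each library. The depth that the deposited values imply was 1.020 to 1.109 times the reads on genes in Bcas2 cKO libraries. In control libraries it was 0.890 to 1.017 times those reads. A gene was tested when its mean over the 6 libraries was at least 1 FPKM, which 37 carriers and 13723 genes met, and passed when limma, fitted on log2(FPKM + 1) over all those genes, gave a Benjamini-Hochberg adjusted p under 0.05. Across all tested genes 6.97% rose and 7.55% fell by the same rule (14.5% in either direction), so 1 rise and 1 fall among 37 carriers were below the share over all genes. The median log2 fold change of the tested carriers was -0.07, against -0.03 over all genes tested, and 25 of the 37 were below 0 (16 when scaled to total reads), where 53.8% of all tested genes were. Changes were small: 30 of the 37 lay within 0.3 on the log2 scale and only Slc25a25 was past 0.5. Standard errors of the carriers' log2 fold changes ran from 0.066 to 0.25, with a median of 0.10. The voom test on recovered reads called 1 carrier risen and 2 fallen, where it called 8.48% of all tested genes risen and 9.78% fallen. At an unadjusted p under 0.05 in limma, 8 carriers were lower and 4 were higher in Bcas2 cKO islets, beside 17% of all tested genes lower and 14.5% higher. The 3 libraries of each group did not overlap for 18 of the 37 (38% of all tested genes), with 12 lower in Bcas2 cKO islets (background 21.1%) and 6 higher (background 16.8%). Slc25a47, among these 6, met the minimum of 1 FPKM only through the Bcas2 cKO libraries, so its difference adds nothing to that count, which is 5 without it.

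**Figure D1:**
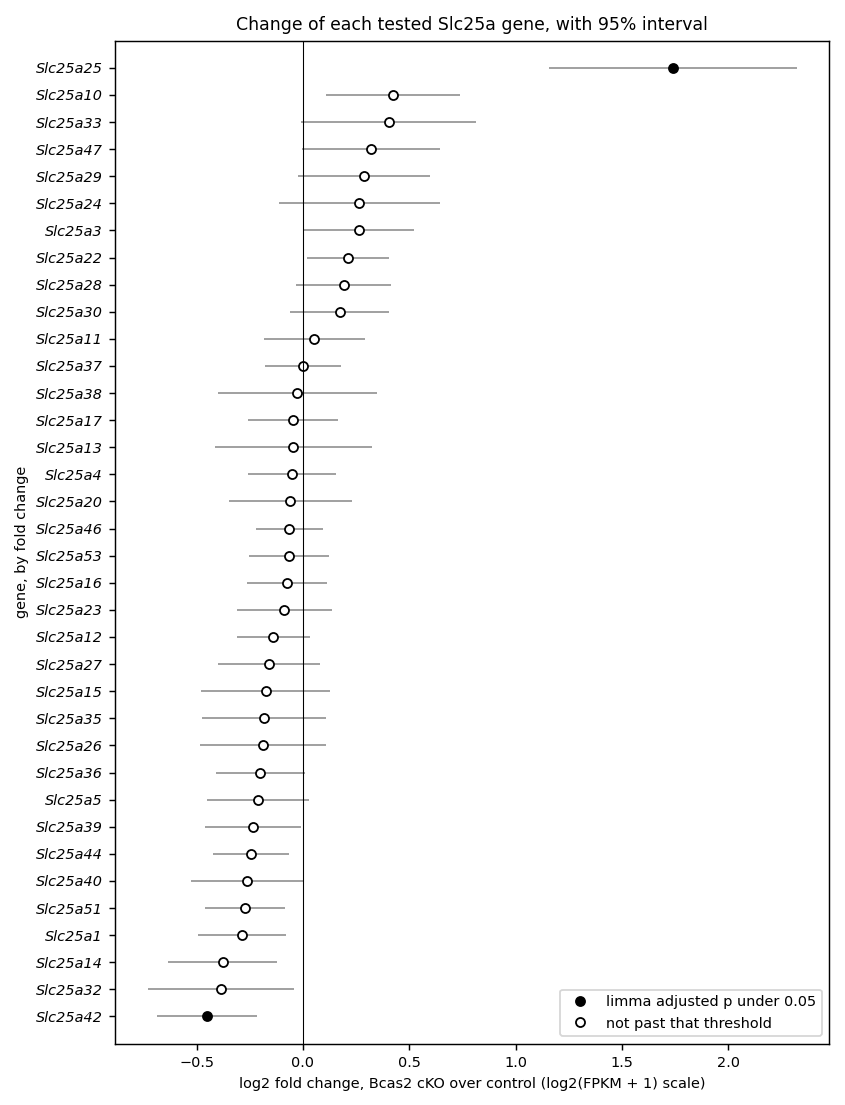
Log2 fold change, Bcas2 cKO over control on the log2(FPKM + 1) scale, of 36 tested carriers, with its 95% interval as a line. Filled points passed at an adjusted p under 0.05. Slc25a25 stands at 1.74, and the other carriers lie between -0.45 and 0.42.

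The carrier that rose, Slc25a25, is a calcium-regulated carrier that exchanges ATP-Mg for phosphate and so sets the adenine nucleotide content of the matrix. It had 14.5, 30.3 and 21.0 FPKM in Bcas2 cKO libraries 3, 4 and 5, against 4.79, 5.53 and 6.62 FPKM in control libraries 1, 3 and 4. Its recovered reads were 2072, 4197 and 2850 in the Bcas2 cKO libraries and 597, 587 and 764 in the control libraries. Every Bcas2 cKO library was above every control library, although the Bcas2 cKO libraries spread widely among themselves. The mean was 22.0 ± 7.94 FPKM in Bcas2 cKO islets and 5.64 ± 0.919 FPKM in control islets (SD, n = 3 each), a ratio of 3.89. Its log2 fold change was 1.74 with a standard error of 0.25 (95% interval 1.16 to 2.32) and a limma adjusted p of 0.0075, and it was the 111th largest rise of the 13723 genes. A log2 fold change above 1 was found for 2.97% of tested genes. The gene (ENSMUSG00000026819) lies on the minus strand of chromosome 2 at chr2:32414487-32451445 in GRCm38. Part of it overlaps Naif1 on the opposite strand, which had 0.909 ± 0.131 FPKM in Bcas2 cKO islets and 1.44 ± 0.163 FPKM in control islets (SD, n = 3 each; limma adjusted p 0.12). The sources used here do not say whether counting used strand, and Naif1 had at most 118 reads in any library. Beside this rise, the summed share of reads of the 8 immediate early genes was higher in every Bcas2 cKO library than in any control library, and 7 of those 8 genes passed as risen. Acinar markers passed in 5 of 16 cases, all as rises. Their part in the change of Slc25a25 was not tested.

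**Figure D2:**
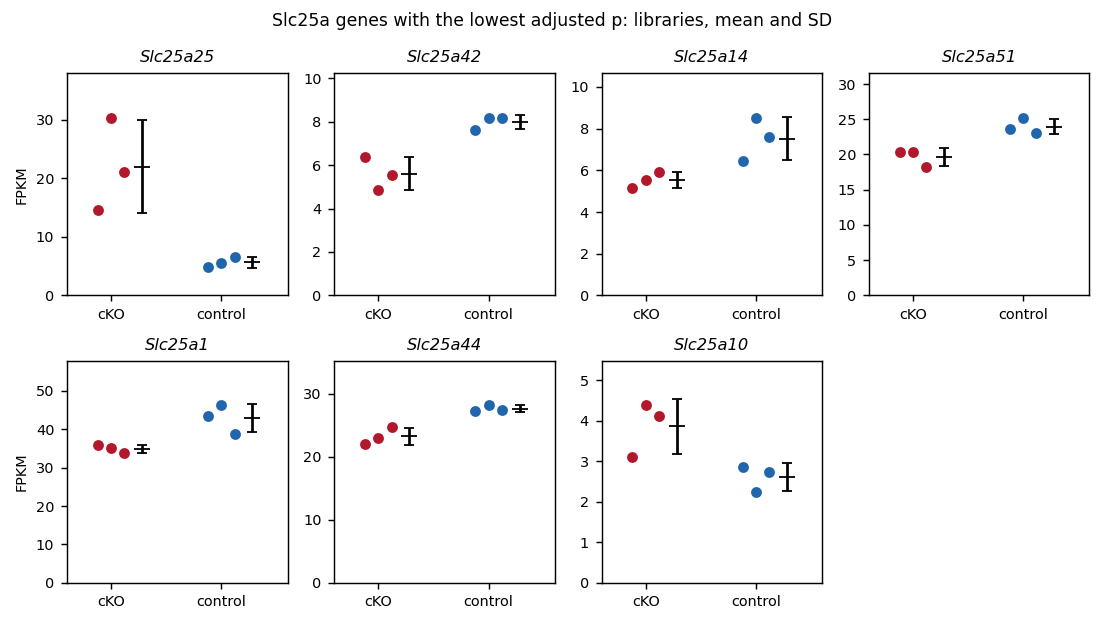
FPKM of 7 carriers with an adjusted p under 0.1, Bcas2 cKO left and control right in each panel. Of all tested genes, 23.5% were under that threshold. Points are libraries in the order of their numbers, and the bar beside them is the mean with its SD (n = 3). Groups do not overlap in any panel, which adds nothing, since the carriers were picked by their low p. The widest spread is that of Slc25a25 in Bcas2 cKO libraries.

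RefSeq lists 3 start sites for Slc25a25, so their promoter windows are printed here beside that of Slc25a42, to show the letters around the starts of the pair of carriers that passed. Each window runs from 250 bases before to 50 bases after a start, on GRCm38.p6, read 5′ to 3′ along the minus strand on which both genes lie. Capitals mark the cyclic AMP response element TGACGTCA and the CCAAT box, searched on both strands, so that ATTGG is a CCAAT box on the other strand. The marked motifs share no letters with each other.
Slc25a25 chr2:32424017-32424316: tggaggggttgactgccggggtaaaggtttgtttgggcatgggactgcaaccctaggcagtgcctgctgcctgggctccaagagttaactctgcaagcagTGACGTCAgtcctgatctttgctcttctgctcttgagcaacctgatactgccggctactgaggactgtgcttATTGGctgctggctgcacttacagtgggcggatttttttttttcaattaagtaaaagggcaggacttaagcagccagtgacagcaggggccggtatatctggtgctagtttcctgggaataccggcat
Slc25a25 chr2:32431102-32431401: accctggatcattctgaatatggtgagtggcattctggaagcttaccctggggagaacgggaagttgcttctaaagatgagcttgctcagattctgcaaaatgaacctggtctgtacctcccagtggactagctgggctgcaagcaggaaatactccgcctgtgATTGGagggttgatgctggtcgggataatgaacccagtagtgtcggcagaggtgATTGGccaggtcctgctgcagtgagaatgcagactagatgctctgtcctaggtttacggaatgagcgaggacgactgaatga
Slc25a25 chr2:32451421-32451720: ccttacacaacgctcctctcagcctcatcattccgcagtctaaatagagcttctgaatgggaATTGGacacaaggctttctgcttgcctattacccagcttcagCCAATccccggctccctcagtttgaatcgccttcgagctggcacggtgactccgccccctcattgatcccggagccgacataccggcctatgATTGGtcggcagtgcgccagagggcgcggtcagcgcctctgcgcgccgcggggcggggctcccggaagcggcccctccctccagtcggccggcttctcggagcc
Slc25a42 chr8:70212232-70212531: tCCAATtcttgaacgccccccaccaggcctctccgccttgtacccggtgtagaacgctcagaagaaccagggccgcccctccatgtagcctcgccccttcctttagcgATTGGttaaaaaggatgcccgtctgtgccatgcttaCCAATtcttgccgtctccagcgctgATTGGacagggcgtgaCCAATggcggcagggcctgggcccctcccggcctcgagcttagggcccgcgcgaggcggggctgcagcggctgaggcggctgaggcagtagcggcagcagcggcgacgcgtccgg
The first Slc25a25 window held a cyclic AMP response element 150 bases before the start, and the other two windows of the gene held none. The element was found in 4.35% of the 46 windows of the 36 carriers that the RefSeq table lists, those being 1 window each of Slc25a25 and Slc25a36, and in 1.79% of all 32851 windows. A CCAAT box was found in 47.8% of the carriers' windows and in 37.4% of all windows, and the Slc25a42 window held 5. Of other motifs searched on both strands, the AP-1 site TGANTCA was found in 4.35% of the carriers' windows and 7.81% of all windows, and the NR4A site AAAGGTCA in 2.17% and 1.51%. The E-box CACGTG was found in 17.4% of the carriers' windows and 7.15% of all windows, and the ETS site CCGGAAG in 15.2% and 8.86%. These matches describe letters in the windows and say nothing of which start was used in these islets.

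The relatives of Slc25a25 did not pass. Slc25a23 and Slc25a24 are the other calcium-regulated ATP-Mg/phosphate carriers measured here. Slc25a23 had 13.2, 11.6 and 14.3 FPKM in Bcas2 cKO libraries and 14.7, 13.1 and 13.9 FPKM in control libraries, with a log2 fold change of -0.09 (limma adjusted p 0.57). Slc25a24 had 4.0, 2.48 and 2.79 FPKM in Bcas2 cKO libraries and 2.04, 2.31 and 2.78 FPKM in control libraries, with a log2 fold change of 0.27 (limma adjusted p 0.30). For both relatives the groups overlapped. Slc25a41, another carrier of the same substrate without the calcium-binding region, had at most 3 reads in any library and was not tested. Summed over these 4 genes, expression was 38.1 ± 6.38 FPKM in Bcas2 cKO islets and 22.0 ± 1.20 FPKM in control islets (SD, n = 3 each). Slc25a25 made up 45.8%, 68.2% and 55.0% of that sum in Bcas2 cKO libraries 3, 4 and 5, against 22.0%, 26.5% and 28.4% in control libraries 1, 3 and 4. Slc25a25 was thus the largest of the group in every Bcas2 cKO library, and Slc25a23 was the largest in every control library.

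**Figure D3:**
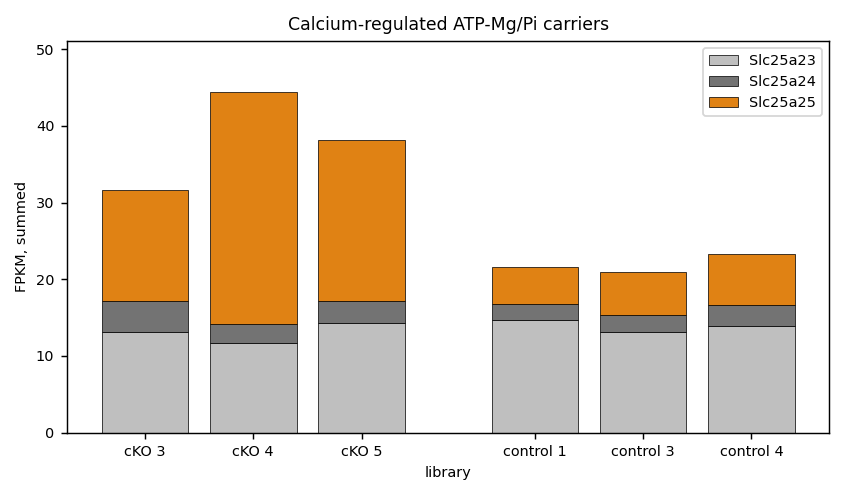
Summed FPKM of Slc25a23, Slc25a24 and Slc25a25 in each library, Bcas2 cKO libraries left and control libraries right, with each gene as a part of the bar. Slc25a41, at most 0.142 FPKM, is left out. The bars differ by the Slc25a25 part, which is the largest part in all Bcas2 cKO libraries.

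Carriers of cofactors and of other nucleotides held the single fall. Of these 9 carriers, all tested, 8 had a log2 fold change below 0, Slc25a42 passed as fallen and none rose, with a median log2 fold change of -0.20. When the libraries were scaled to their total reads, Slc25a16 and Slc25a17 changed sign. Slc25a42 imports coenzyme A and adenosine bisphosphate into the matrix, and lies on the minus strand at chr8:70184340-70212305 in GRCm38. It had 6.38, 4.87 and 5.52 FPKM in Bcas2 cKO libraries 3, 4 and 5, against 7.61, 8.18 and 8.16 FPKM in control libraries 1, 3 and 4. All Bcas2 cKO libraries were below all control libraries. The mean was 5.59 ± 0.757 FPKM in Bcas2 cKO islets and 7.99 ± 0.322 FPKM in control islets (SD, n = 3 each), a ratio of 0.70, with a log2 fold change of -0.45, a standard error of 0.099 and a limma adjusted p of 0.028. That call rested on single libraries: the adjusted p was 0.075 without Bcas2 cKO library 4, 0.085 without Bcas2 cKO library 5, 0.074 without control library 3 and 0.087 without control library 4. Scaled to total reads, its log2 fold change was -0.33 with an adjusted p of 0.11.

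The other cofactor carriers did not pass. Slc25a51, which imports NAD+, had 20.3, 20.4 and 18.2 FPKM in Bcas2 cKO libraries and 23.6, 25.2 and 23.1 FPKM in control libraries, with a log2 fold change of -0.27 (limma adjusted p 0.062). All its Bcas2 cKO libraries were below all control libraries. Slc25a32, which carries folate and FAD, had 6.08, 6.26 and 5.50 FPKM in Bcas2 cKO libraries and 6.21, 9.33 and 8.99 FPKM in control libraries, and its groups overlapped at control library 1 (log2 fold change -0.38, limma adjusted p 0.12). Without that library the adjusted p of Slc25a32 was 0.017. The pyrimidine nucleotide carriers Slc25a33 and Slc25a36 had log2 fold changes of 0.40 and -0.20 (limma adjusted p 0.17 for each). Slc25a16, which is linked to coenzyme A, Slc25a17, a peroxisomal carrier of cofactors, and Slc25a26, the S-adenosylmethionine carrier, had log2 fold changes of -0.07, -0.04 and -0.19. Summed, the 9 carriers had 76.2 ± 2.73 FPKM in Bcas2 cKO islets and 88.9 ± 5.15 FPKM in control islets (SD, n = 3 each). These sums did not overlap as deposited. Scaled to total reads, the sum of Bcas2 cKO library 3 was above that of every control library, so the groups overlapped.

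The most abundant carriers supply oxidative phosphorylation with ADP and phosphate, and none of them passed. Slc25a5 and Slc25a4 are adenine nucleotide translocases, which exchange cytosolic ADP for matrix ATP, and Slc25a3 is the phosphate carrier. Slc25a5 had 71.1, 81.2 and 70.3 FPKM in Bcas2 cKO libraries and 79.8, 93.3 and 84.9 FPKM in control libraries (log2 fold change -0.21, limma adjusted p 0.20). Slc25a4 had 61.7, 62.5 and 67.7 FPKM in Bcas2 cKO libraries and 64.4, 71.5 and 63.1 FPKM in control libraries (log2 fold change -0.05, limma adjusted p 0.73). The groups overlapped for both translocases, and the sign of Slc25a4 turned to 0.09 when scaled to total reads. Slc25a3 had 69.6, 79.0 and 70.3 FPKM in Bcas2 cKO libraries and 55.6, 69.0 and 57.7 FPKM in control libraries (log2 fold change 0.26, limma adjusted p 0.15), and its lowest Bcas2 cKO library was just above its highest control library. These 3 genes made up 37.4% to 38.8% of the family's summed FPKM in Bcas2 cKO libraries and 36.4% to 38.2% in control libraries. Slc25a31, the testis-type translocase, was at or under 0.134 FPKM in each library and was not tested. Over the whole family the summed FPKM was 538, 574 and 557 in Bcas2 cKO libraries and 549, 612 and 549 in control libraries, so the groups overlapped. Other measures of the family's total did not overlap and ran in opposite directions. As a share of reads on genes, the family took 0.220%, 0.224% and 0.211% in Bcas2 cKO libraries and 0.197%, 0.193% and 0.191% in control libraries. Slc25a25 alone held 2072, 4197 and 2850 of the family's 35967, 37885 and 35616 reads in Bcas2 cKO libraries. In control libraries it held 597, 587 and 764 of 30776, 29207 and 29083 reads. As a share of the summed FPKM of nuclear protein-coding genes without hormone genes, the family took 0.288%, 0.282% and 0.246% in Bcas2 cKO libraries. In control libraries that share was 0.297%, 0.316% and 0.309%. The direction of the family's total thus depends on what it is measured against.

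**Figure D4:**
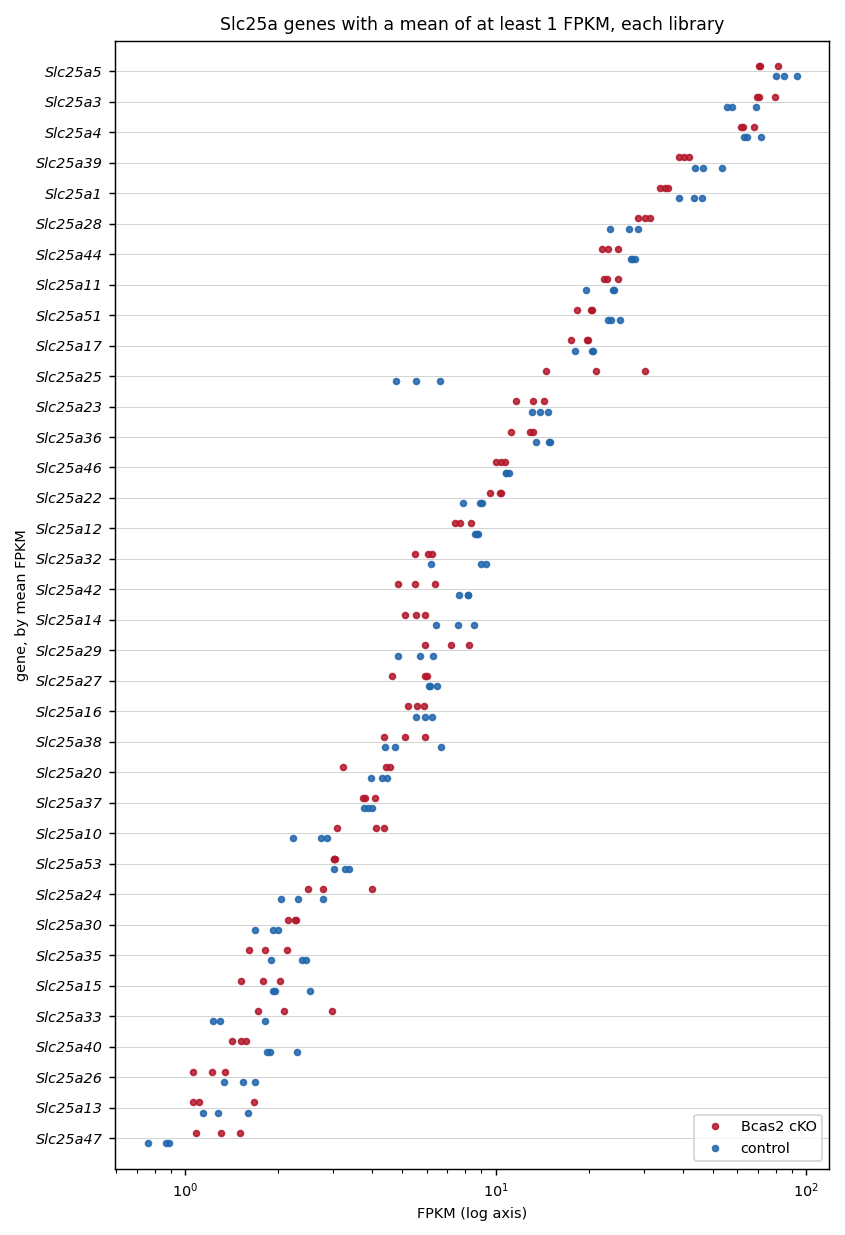
FPKM on a log axis of 36 tested carriers in each library, ordered by mean, with Bcas2 cKO in red above control in blue on each line. Slc25a5, Slc25a3 and Slc25a4 are the only carriers with a mean over 50 FPKM, and Slc25a25 is the carrier whose groups lie farthest apart.

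Carriers of di- and tricarboxylates, which move Krebs cycle acids, did not pass either. Slc25a1, the citrate carrier, had 35.8, 35.2 and 33.9 FPKM in Bcas2 cKO libraries and 43.6, 46.4 and 38.9 FPKM in control libraries (log2 fold change -0.29, limma adjusted p 0.074). Slc25a10, the dicarboxylate carrier, had 3.10, 4.39 and 4.11 FPKM in Bcas2 cKO libraries and 2.86, 2.23 and 2.74 FPKM in control libraries (log2 fold change 0.42, limma adjusted p 0.078). The groups of both genes were apart, with Slc25a1 lower and Slc25a10 higher in Bcas2 cKO islets. Slc25a11, the oxoglutarate-malate carrier of the malate-aspartate shuttle, had 22.3, 22.9 and 24.7 FPKM in Bcas2 cKO libraries and 23.9, 24.0 and 19.6 FPKM in control libraries (log2 fold change 0.05, limma adjusted p 0.75), with overlapping groups. Slc25a21, the oxodicarboxylate carrier, had 1 read in all libraries together.

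Of 12 carriers of amino acids, carnitine or glutathione, 10 were tested, of which 8 had a log2 fold change below 0 and none passed in limma or voom (3 had an unadjusted p under 0.05). Of those 8, Slc25a13, Slc25a20 and Slc25a38 were above 0 when scaled to total reads. Slc25a39, which imports glutathione, had 38.9, 42.1 and 40.4 FPKM in Bcas2 cKO libraries and 46.4, 53.5 and 43.9 FPKM in control libraries (log2 fold change -0.24, limma adjusted p 0.14). Slc25a44, the branched-chain amino acid carrier, had 22.0, 22.9 and 24.7 FPKM in Bcas2 cKO libraries and 27.2, 28.2 and 27.5 FPKM in control libraries (log2 fold change -0.24, limma adjusted p 0.074). In both genes all Bcas2 cKO libraries were below all control libraries. Slc25a40, the paralog of Slc25a39, averaged 1.5 ± 0.077 FPKM in Bcas2 cKO islets and 2.01 ± 0.252 FPKM in control islets (SD, n = 3 each; limma adjusted p 0.16). Slc25a22, the main glutamate carrier here, averaged 10.1 ± 0.481 FPKM in Bcas2 cKO islets and 8.61 ± 0.651 FPKM in control islets (SD, n = 3 each; limma adjusted p 0.13), with its groups apart. The aspartate-glutamate carriers Slc25a12 and Slc25a13 had log2 fold changes of -0.14 and -0.05 (limma adjusted p 0.24 and 0.87). Slc25a12 was the more abundant of them, at 7.80 ± 0.476 FPKM in Bcas2 cKO islets and 8.67 ± 0.098 FPKM in control islets (SD, n = 3 each). Slc25a15, an ornithine carrier, Slc25a20, the carnitine-acylcarnitine carrier, Slc25a29, a basic amino acid carrier, and Slc25a38, the glycine carrier of haem synthesis, had log2 fold changes of -0.18, -0.06, 0.29 and -0.03. For these 4 the groups overlapped and the adjusted p was between 0.19 and 0.93 in limma.

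The relatives of the uncoupling proteins, Slc25a14, Slc25a27 and Slc25a30, had groups that did not overlap, as did 38% of all tested genes, and none passed. Slc25a14 had 5.13, 5.55 and 5.91 FPKM in Bcas2 cKO libraries and 6.45, 8.52 and 7.57 FPKM in control libraries, with a log2 fold change of -0.38 (limma adjusted p 0.060). It passed in 5 of 19 alternative analyses. Slc25a27 and Slc25a30 had log2 fold changes of -0.16 and 0.17 (limma adjusted p 0.33 and 0.28). Of the mitoferrins, which import iron, Slc25a28 had 28.8, 30.3 and 31.4 FPKM in Bcas2 cKO libraries and 26.8, 28.8 and 23.4 FPKM in control libraries (log2 fold change 0.19, limma adjusted p 0.22). Slc25a37 averaged 3.88 ± 0.199 FPKM in Bcas2 cKO islets and 3.88 ± 0.116 FPKM in control islets (SD, n = 3 each). Its 95% interval for the log2 fold change was -0.18 to 0.18. The rest were grouped here without an assigned substrate or sit on the outer membrane. Slc25a46, an outer membrane protein tied to mitochondrial shape, Slc25a35 and Slc25a53 had log2 fold changes of -0.06, -0.18 and -0.07. Slc25a47, best known from liver, had 0.32 at a mean of 1.30 FPKM in Bcas2 cKO islets and 0.839 FPKM in control islets. Its mean over the 6 libraries, 1.07 FPKM, met the minimum for a test, while its control mean alone was below 1 FPKM. None of these 4 passed in limma, with adjusted p between 0.17 and 0.61.

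The 10 carriers with a mean under 1 FPKM were Slc25a2, Slc25a18, Slc25a21, Slc25a31, Slc25a34, Slc25a41, Slc25a43, Slc25a45, Slc25a48 and Slc25a54. Slc25a18, a glutamate carrier, was the highest of them, with 36, 25 and 31 reads in Bcas2 cKO libraries and 14, 8 and 11 reads in control libraries. Slc25a43 had 15, 11 and 11 reads in Bcas2 cKO libraries and 8, 5 and 4 reads in control libraries, and Slc25a34 had 6, 7 and 8 against 3, 2 and 4. In these 3 genes every Bcas2 cKO library was above every control library, at a depth where no test was made. The share of other genes under 1 FPKM that lay so was not counted. Genes with a value above 0 numbered 25525 to 27064 in Bcas2 cKO libraries and 22894 to 24226 in control libraries. Slc25a2 is an ornithine carrier, and Slc25a34, Slc25a43, Slc25a45, Slc25a48 and Slc25a54 were grouped here without an assigned substrate. The groups of the other 7 genes overlapped.

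Pairs of carriers taken as close paralogs, not all with a known common substrate, were compared by their FPKM ratio within each library. Of 9 pairs, 7 had both genes tested, and 3 of the 7 had ratios that did not overlap between groups. The share of other gene pairs whose ratios lay so was not counted, and 38% of single tested genes had groups that did not overlap. The ratio of Slc25a14 to Slc25a30 was 2.48 ± 0.112 in Bcas2 cKO islets and 4.02 ± 0.350 in control islets. The ratio of Slc25a33 to Slc25a36 was 0.181 ± 0.046 in Bcas2 cKO islets and 0.10 ± 0.019 in control islets. The ratio of Slc25a51 to Slc25a53 was 6.49 ± 0.383 in Bcas2 cKO islets and 7.45 ± 0.386 in control islets (SD, n = 3 each). For these 3 pairs the two-sided exact permutation p was 0.10, the smallest that 3 against 3 libraries can give, and 0.23 after adjustment over the 7 pairs, so no ratio passed. The translocase ratio Slc25a4 to Slc25a5 was 0.867 ± 0.096 in Bcas2 cKO islets and 0.772 ± 0.032 in control islets (SD, n = 3 each; exact permutation p 0.20).

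Scaling between libraries moved small changes across 0. Under 5 scalings, 26 of the 37 tested carriers kept their sign, 16 below 0 and 10 above, and 11 changed it. Median-of-ratios scaling, among these 5, gave the same factor of 1.005 in all 6 libraries, so it left the deposited values almost as they were. Over all tested genes the median log2 fold change was -0.03 as deposited, -0.12 when hormone genes were left out of the scaling and 0.09 when libraries were scaled to total reads. Over all genes 957 rose and 1036 fell as deposited, 608 rose and 1249 fell without hormone genes in the scaling, and 1394 rose and 421 fell when scaled to total reads. Slc25a25 kept a log2 fold change between 1.63 and 1.87 over these scalings, and Slc25a42 one between -0.55 and -0.33.

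**Figure D5:**
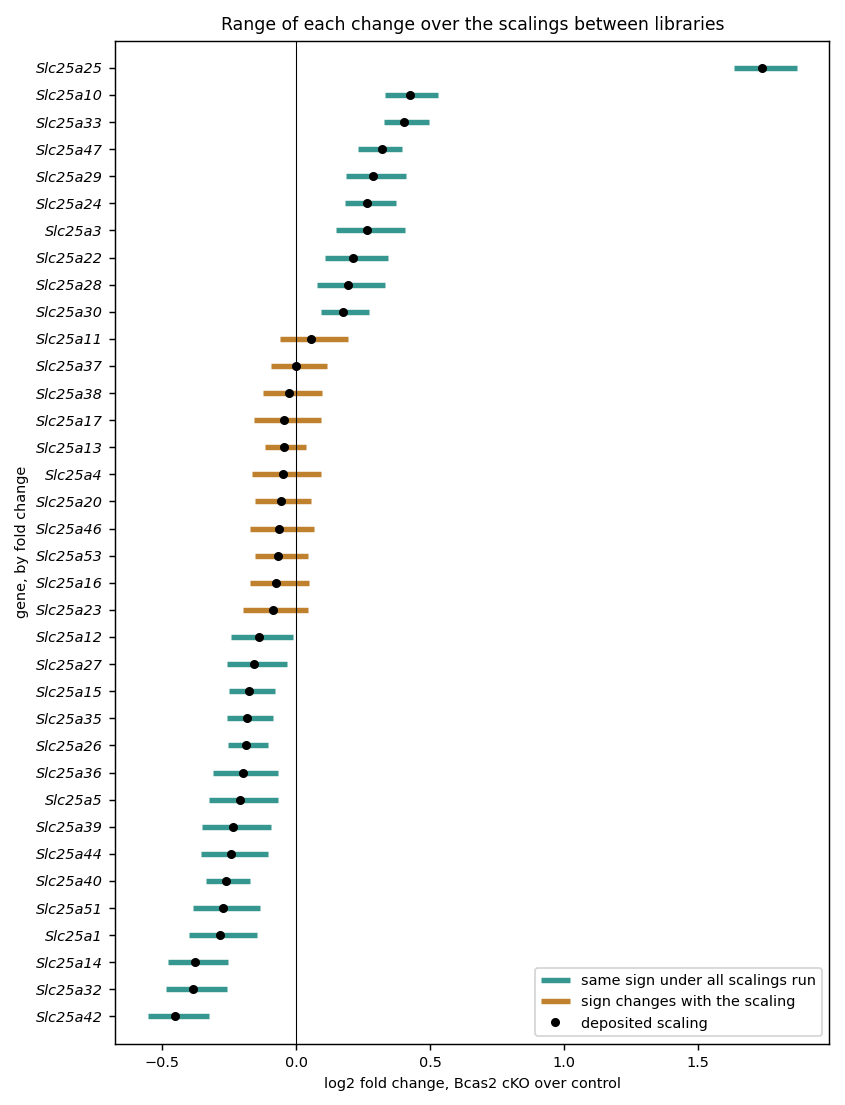
Range of the log2 fold change of 36 tested carriers, Bcas2 cKO over control, over the 5 scalings between libraries, with the deposited scaling as a point. Lines in teal keep their sign and lines in ochre, for 11 carriers, cross 0.

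The carriers lie on 19 chromosomes, and few are neighbours. Slc25a29 and Slc25a47 are 162 bases apart on opposite strands of chromosome 12, and neither passed. Slc25a24 and Slc25a54 are 6461 bases apart on chromosome 3, and Slc25a23 and Slc25a41 are 2056 bases apart on chromosome 17. In total 23 carriers overlap another annotated gene, 17 of them one on the opposite strand. These are overlaps of whole gene spans, and whether any read was shared was not tested. In 8 cases the overlapping gene was at or above 1 FPKM.

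Few genes that work beside the carriers passed. Of 3 tested carriers with other names, none passed in limma or voom (2 at an unadjusted p under 0.05), with Mtch1, an outer membrane insertase of the family, at 83.8 ± 2.29 FPKM in Bcas2 cKO islets and 101 ± 10.4 FPKM in control islets. Ucp2, an uncoupling protein relative abundant in beta cells, was at 40.6 ± 2.09 FPKM in Bcas2 cKO islets and 35.9 ± 3.19 FPKM in control islets (SD, n = 3 each). Of 14 tested genes for import of carriers into the inner membrane, none passed in limma or voom (2 at an unadjusted p under 0.05), and the most abundant, Timm8b and Tomm7, had log2 fold changes of -0.26 and 0.10. None of 3 porins passed in limma or voom, or at an unadjusted p under 0.05. The main porin Vdac1, which lets metabolites cross the outer membrane, was at 45.9 ± 4.61 FPKM in Bcas2 cKO islets and 56.3 ± 8.46 FPKM in control islets (SD, n = 3 each), and Vdac2 had a log2 fold change of -0.0036. Of 17 other tested transporters of the inner membrane, which are not reported here by name, 1 fell and none rose in limma. Among 14 genes of mitochondrial mass and biogenesis 1 fell, Sdha, the catalytic subunit of succinate dehydrogenase (log2 fold change -0.40, limma adjusted p 0.025). Over all tested genes, 6.97% rose and 7.55% fell by the limma threshold, and 8.48% and 9.78% did so by voom. At an unadjusted p under 0.05 in limma, the shares over all tested genes were 14.5% risen and 17% fallen.

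Among 33 tested enzymes that make or use what the carriers move, 1 rose and 5 fell (over all genes 6.97% rose and 7.55% fell), with a median log2 fold change of -0.02. Mthfd2, of mitochondrial folate metabolism, was at 6.99 ± 1.52 FPKM in Bcas2 cKO islets and 14.1 ± 3.96 FPKM in control islets (log2 fold change -0.91, limma adjusted p 0.034). Idh1 and Idh2, the NADP-dependent isocitrate dehydrogenases of the cytosol and the matrix, fell by 0.67 and 0.65 on the log2 scale (limma adjusted p 0.0070 and 0.013). Gpd2, the mitochondrial glycerol phosphate dehydrogenase of the shuttle that uses no carrier, fell by 0.38 (limma adjusted p 0.041). The riser was Gpd1, the cytosolic partner of Gpd2, with a log2 fold change of 0.30 (limma adjusted p 0.047). Slc25a32, which carries the folate that Mthfd2 uses, was lower in mean but did not pass.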

How the data were processed

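RNA of mouse islets was sequenced in 3 Bcas2 cKO and 3 control libraries. Per the labels' protocols, libraries were made with a SMARTer kit from Trizol-extracted RNA. The values are FPKM as the authors deposited them, 1 column per library per the file headers, on GRCm38 (mm10) per the submitters' processing notes; no source used here names the aligner or counter. Multiplied by gene length, 100% of the values came to whole reads within 0.01 of a read, which gave the reads per gene. The table's Bcas2 cKO columns are numbered 3, 4 and 5 and the labels name 1, 3 and 4, so library 5 was used as a member of its group with no label of its own.

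Genes averaging 1 FPKM or more were fitted as log2(FPKM + 1) with limma 3.58.1 in R 4.3.3 (trended eBayes) and adjusted over all genes by Benjamini-Hochberg. Fold changes are on that scale, which understates low genes. On data simulated for this comparison, 26.2%, 90.9% and 98.7% of genes changed by log2 0.5, 1 and 2 were recovered, and 5.52% of calls were false. The simulation changed 200 genes and gave all genes the same spread beside sampling noise. In the measured libraries 14.5% of tested genes were called, so these rates need not hold there. No 2 libraries agreed within sampling noise.

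The carriers, related lists and tests were chosen with earlier results of these data known. Some genes of the family and lists are not reported here by name, and they are left out of the figures; the other carriers are all named. By rule, values in each library are given for carriers that passed and for the 8 of highest mean. From each related list, other inner membrane transporters excepted, up to 4 called genes of largest change are named, or the 2 most abundant where none was called. Values in each library of further carriers, Gpd1 and the motifs shown were added after values were seen. Alternatives changed the pseudocount, filter, scaling, variance model, test, pairing and libraries used.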

Additional observations from a re-analysis of the deposited data

How the results depend on the processing

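Slc25a25 passed in all 19 alternatives, with a log2 fold change between 1.49 and 1.99 and an adjusted p between 0.00086 and 0.030. Slc25a42 passed in 12, with adjusted p between 0.012 and 0.13. Median-of-ratios scaling, counted for both genes, repeated the deposited scaling, so its agreement was fixed in advance. The count of carriers risen (1) was 2 with quantile normalization, which added Slc25a3, and 3 when scaled to total reads on genes, a setting chosen after seeing the data, which added Slc25a3 and Slc25a22. The count fallen (1) was 0 with all genes above a mean of 0 tested, 0 when scaled to total reads and 0 with the replicate block. At an unadjusted p under 0.05 in limma it was 9, 2 and 3 in these settings (8.33%, 8.04% and 11.6% of all genes fell so). The block joined libraries of the same number, while Bcas2 cKO library 5 and control library 1 had a level each. Its fold changes thus came only from libraries 3 and 4 of each group. The count fallen was 2 with a mean of at least 5 FPKM, 2 without hormone and acinar genes in the scaling and 2 with voom. Leaving hormone genes out of the scaling gave 3, as did library weights. Leaving out each library gave 0 to 3 carriers fallen, 466 to 956 genes risen, 391 to 994 fallen and 2 to 6 genes called in the related lists (8 with all libraries); the counts over all genes fell by over 1.5 times without any Bcas2 cKO library or control library 4, and that of falls also without control library 3. All genes risen (957) and fallen (1036) were 628 and 516 with all genes above a mean of 0, 352 and 186 with the block, 608 risen without hormone genes and 421 fallen when scaled to total reads. Related lists had 5 calls with all genes above a mean of 0, 13 with library weights and 0 with the block. Numbers 3 and 4 are shared by both groups. Same-numbered libraries had correlations of -0.15 and 0.05 between their deviations, and those of differently numbered libraries ran from -0.13 to 0.12. With 3 libraries a group, these values cannot tell whether the numbers pair libraries. The log2 difference of summed carrier FPKM (-0.03) was -0.15 without hormone genes and 0.11 when scaled to total reads. Slc25a11 turned to -0.059 without hormone genes and ranged from -0.039 to 0.10 with a library left out, Slc25a4 turned to 0.091 when scaled to total reads and ranged from -0.092 to 0.0033, and the log2 ratio of Slc25a12 to Slc25a13 ranged from -0.19 to 0.091. The cause of these shifts was not tested. The planned quasi-likelihood test on recovered reads was not run. With 3 libraries a group, changes near 0.5 on the log2 scale were mostly not recovered in simulation, so carriers that did not pass are not shown to be unchanged.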

Other observations

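A predicted small nucleolar RNA gene, Gm24119, lies in an intron of Slc25a3 and overlaps no exon base of it. Both genes lie on the minus strand, so reads counted for Gm24119 cannot be told apart from reads of unspliced Slc25a3 RNA. Gm24119 is 246 bases long, at chr10:91118291-91118536 in GRCm38, and was chosen after its values were seen. It had 14.3, 15.7 and 17.7 FPKM in Bcas2 cKO libraries, from 64, 68 and 75 reads, against 3.33, 4.82 and 3.6 FPKM in control libraries, from 13, 16 and 13 reads. The log2 fold change was 1.79 with a standard error of 0.13 and a limma adjusted p of 0.0018, while that of Slc25a3 was 0.26 with an adjusted p of 0.15. Every Bcas2 cKO library was above every control library for Gm24119.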
